A study of Mus musculus with 4 samples.

Results

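The core circadian clock genes are 10 genes, Clock, Arntl, Per1, Per2, Per3, Cry1, Cry2, Nr1d1, Nr1d2 and Dbp, taken by symbol from the GENCODE annotation of the mouse genome, whose 21755 protein-coding genes outside chromosome Y and the mitochondrial genome served as the background. They were followed in peak lists of H3K4me3, the trimethylated lysine 4 of histone H3 that marks promoters, mapped by chromatin immunoprecipitation sequencing (ChIP-seq). The tissue was gastrocnemius, the large calf muscle, of B6CASTF1/J mice, a first-generation hybrid of C57BL/6J and CAST/EiJ. All animals were adult females of 2 months with no treatment named in the labels, and the hour of collection was not given in the sources used here. Pool E and pool F each combined 2 biosamples and gave 2 technical libraries, so there were 4 libraries, 2 pools and no contrast between conditions. One mm10 peak list came from pool E and one from pool F, and 2 further lists came from both pools, a replicated and a pooled one. A peak counted for a gene when it lay within 1000 bp of any of its transcription start sites (TSSs), and such a gene is called marked.

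The clock is a transcriptional feedback loop. CLOCK and BMAL1, the product of Arntl, form the positive arm: the heterodimer binds E-boxes and activates the Per, Cry, Nr1d and Dbp genes. PER and CRY proteins return to the nucleus and repress that heterodimer, and the REV-ERB receptors encoded by Nr1d1 and Nr1d2 repress Arntl through ROR elements; all 7 of their genes are counted as the negative arm here. DBP is an output factor that carries the rhythm to further genes through D-boxes. Skeletal muscle holds such a clock of its own, and many of its metabolic genes follow it.

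Letters searched for as these control elements lay under the clock genes' H3K4me3 peaks at the places printed here, shown to give the sequence beneath the peaks described below. The searched letters were CACGTG (E-box), CACGTT (a variant called E-prime box here), TTATGTAA (D-box), TAGGTCA (ROR element) and TGACGTCA (cyclic AMP response element, CRE), on both strands. They are shown in capitals in 300-base promoter windows from RefSeq (assembly GRCm38.p6, the build of mm10), each 250 bases before to 50 bases after a RefSeq transcript start. The windows are Arntl chr7:113207261-113207560 on the plus strand, Per1 chr11:69098699-69098998 on the plus strand, Per3 chr4:151044616-151044915 on the minus strand and Cry1 chr10:85185005-85185304 on the minus strand. Each is written 5′ to 3′ on the strand of its gene.
Arntl promoter: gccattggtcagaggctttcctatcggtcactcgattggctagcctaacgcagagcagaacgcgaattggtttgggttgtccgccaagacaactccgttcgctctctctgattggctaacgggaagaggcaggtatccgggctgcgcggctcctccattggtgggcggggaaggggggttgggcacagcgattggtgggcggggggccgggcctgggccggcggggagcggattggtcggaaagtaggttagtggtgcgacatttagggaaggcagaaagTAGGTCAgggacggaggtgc
Per1 promoter: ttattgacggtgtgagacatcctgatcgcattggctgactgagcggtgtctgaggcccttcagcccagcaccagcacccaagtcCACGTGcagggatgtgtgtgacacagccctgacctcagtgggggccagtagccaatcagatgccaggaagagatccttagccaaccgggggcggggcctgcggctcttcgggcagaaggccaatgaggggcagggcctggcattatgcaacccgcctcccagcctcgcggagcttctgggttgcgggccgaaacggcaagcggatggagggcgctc
Per3 promoter: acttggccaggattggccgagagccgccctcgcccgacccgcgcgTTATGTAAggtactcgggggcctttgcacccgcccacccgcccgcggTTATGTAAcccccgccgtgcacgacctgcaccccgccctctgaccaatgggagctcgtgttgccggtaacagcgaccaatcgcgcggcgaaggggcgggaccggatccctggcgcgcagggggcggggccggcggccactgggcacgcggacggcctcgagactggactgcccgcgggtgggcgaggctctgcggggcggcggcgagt
Cry1 promoter: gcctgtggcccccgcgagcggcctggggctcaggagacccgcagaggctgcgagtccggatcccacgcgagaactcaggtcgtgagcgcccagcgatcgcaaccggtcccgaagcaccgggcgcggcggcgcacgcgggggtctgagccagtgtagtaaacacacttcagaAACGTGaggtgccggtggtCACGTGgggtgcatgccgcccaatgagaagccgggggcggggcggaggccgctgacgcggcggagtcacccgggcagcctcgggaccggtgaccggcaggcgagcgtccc
Arntl, the target of the REV-ERB and ROR receptors, held a ROR element 31 bases into the transcript. Cry1 held an E-box beginning 60 bases before the start and, 79 bases before it, an E-prime box on the other strand. Per3 held a pair of D-boxes, 205 and 158 bases before the start, in a single window. The Per1 window belongs to a start further downstream than the first TSS, and its E-box began 166 bases before that start.

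The table of promoter windows held 9 of the 10 genes, with 13 windows, and all 13 lay wholly under a peak of the replicated list. No share over all 32851 windows was set beside that count, so it is not shown to be particular to the clock genes. An E-box was present in 2 of these 13 windows (7.15% of all 32851 windows in the table held one), an E-prime box in 3 (4.68%, here Cry1, Cry2 and Nr1d1), a D-box in 1 (0.938%), a ROR element in 1 (2.61%) and a CRE in 0 (1.79%). Within the whole of the widest peak, an E-box lay in 5 of the 9 genes, an E-prime box in 6, a D-box in 3, a ROR element in 3 and a CRE in 1. Among 8564 replicated peaks of 2000 to 12000 bp at protein-coding genes, the shares with a match were 43.7%, 47.0%, 10.6%, 22.7% and 6.12% in the same order; that class includes peaks narrower than those of the clock genes. Per kb of peak, the widest peaks of the 9 genes held 0.340 E-boxes, against 0.195 over all 17343 peaks near protein-coding TSSs, 0.272 E-prime boxes against 0.200, 0.113 D-boxes against 0.0313, 0.0906 ROR elements against 0.0783 and 0.0226 CREs against 0.0218. The D-boxes came to 5 in all and the CREs to 1. A match is a description of letters and not of binding. The letters are those of the reference assembly, and sequence differences between the 2 parental strains of the hybrid were not examined.

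Runs of E-boxes lay in introns of Nr1d2 and Dbp, away from the promoter windows. Nr1d2 had E-boxes 449, 552 and 597 bp after its first TSS and a D-box at 517 bp, all in the first intron, with the nearest of them 182 bp from the peak's summit. Dbp had E-boxes at 2624 and 2737 bp with an E-prime box between them at 2686 bp, also in an intron. Both stretches of 200 bases are printed from the same assembly, chosen after the matches were seen: Nr1d2 chr14:18238498-18238697 on the minus strand and Dbp chr7:45707678-45707877 on the plus strand, with any of the searched letters in capitals.
Nr1d2 intron: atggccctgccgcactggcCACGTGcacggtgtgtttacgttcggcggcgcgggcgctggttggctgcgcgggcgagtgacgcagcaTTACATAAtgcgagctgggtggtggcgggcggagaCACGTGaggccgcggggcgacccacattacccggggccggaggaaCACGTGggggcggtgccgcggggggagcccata
Dbp intron: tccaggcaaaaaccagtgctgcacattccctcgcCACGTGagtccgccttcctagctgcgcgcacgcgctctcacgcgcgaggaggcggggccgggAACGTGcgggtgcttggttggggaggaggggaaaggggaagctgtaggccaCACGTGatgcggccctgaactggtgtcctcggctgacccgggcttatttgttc
Nr1d2 alone among the 9 genes held 3 E-boxes within 200 bp, as did 0.307% of 2927 peaks of 3000 to 5000 bp, the class of its own width. Counting E-boxes and E-prime boxes together, Nr1d2 and Dbp held 3 within that span. So did 1.02% of the peaks of 3000 to 5000 bp and 0.842% of 713 peaks of 5000 to 7000 bp, the class of the Dbp width. The number of matches, the span and the width classes were set after the matches were seen. These shares therefore describe the classes and do not test whether such runs are unusual.

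All 10 clock genes were marked in each of the 4 lists. The share of marked protein-coding genes was 69.3% in pool E, 68.9% in pool F, 69.3% in the replicated list and 69.5% in the pooled list. In all 10 a peak also covered the first TSS. In the replicated list all 10 stayed marked when a peak had to cover a TSS (67% of protein-coding genes), lie within 2500 bp of one (70.4%) or have a −log10 q of at least 5 (68.3%). The peaks near a TSS were identical in the replicated and pooled lists for 10 of 10 genes. The pooled list therefore adds no width or signal value of its own for them below. Peaks further inside the genes were not identical, and Arntl held 8 of these in the replicated list and 7 in the pooled list.

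The clock genes carried wide peaks more than high ones. The width of a gene is that of its widest peak near a TSS, and its signal value is the highest deposited for those peaks, a number of the authors' own whose scale was not stated so that values of different lists stand side by side here and are ranked within a list only. The median width of the 10 genes was 4342 bp, against 2281 bp for all 15067 marked genes of the replicated list (interquartile range 1655 to 3196 bp). In pool E the medians were 4336 bp for the clock genes and 2326.5 bp for marked genes, and in pool F 3748.5 and 2198 bp. In the replicated list 9 of the 10 were wider than the median marked gene and 8 stood above the upper quartile, with 8 also in pool E and 7 in pool F. By signal value 6 of the 10 stood above the median of marked genes and 4 above the upper quartile, with 6 and 4 in pool E, and 5 and 2 in pool F. Their median signal value was 49.1, against 45.2 for marked genes of that list. In pool E it was 55.0 against 48.9, and in pool F 43.6 against 42.9.

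**Figure D1:**
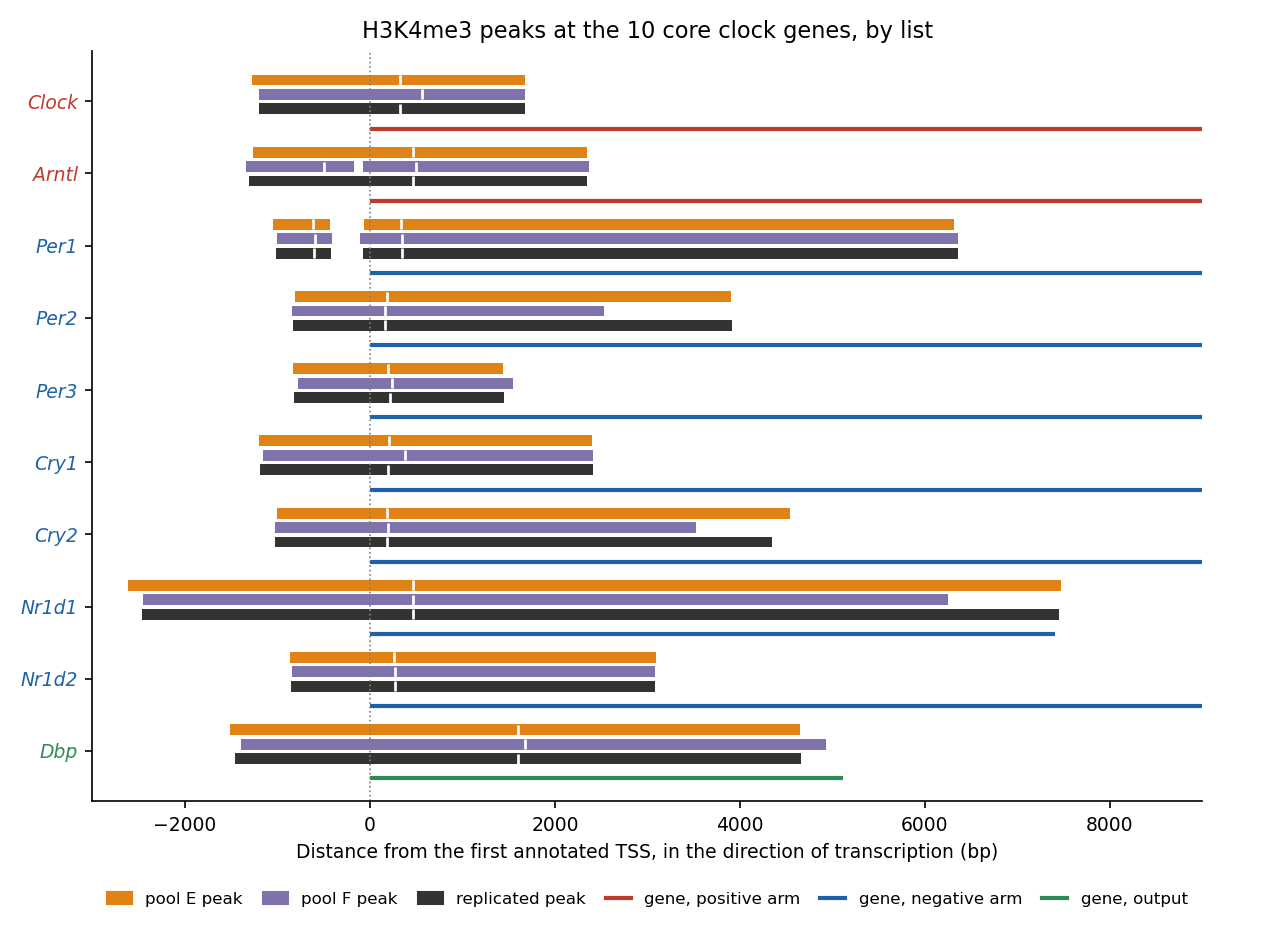
Peaks within 1000 bp of a TSS at each clock gene, drawn by distance in bp from the first annotated TSS in the direction of transcription; bars are peaks of pool E, pool F and the replicated list, white ticks are summits, and coloured lines are the genes, clipped at the right edge where longer. The Nr1d1 peak spans the whole gene in pool E and the replicated list and stops short of its end in pool F, Per1 has a gap just before its TSS in every list, and Arntl has a gap in pool F alone.

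By their medians, given below, the positive arm had narrower peaks than the negative arm and, except in pool F, higher signal values. Clock, which encodes the CLOCK subunit of the heterodimer, had a peak of 2945 bp in pool E, 2875 bp in pool F and 2873 bp in the replicated list (chr5:76303116-76305988). The pools thus placed the Clock peak within 70 bp of each other in width. Its signal value was 64.5 in pool E, 49.5 in pool F and 58.8 in the replicated list, where 12.4% of marked genes stood higher.

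Arntl was deposited as 1 peak in pool E and as 2 in pool F. Its peak was 3606 bp wide in pool E with a signal value of 61.7, and 3645 bp with 54.8 in the replicated list (chr7:113206163-113209807). In pool F the same stretch was split into peaks of 1162 bp with 28.1 and of 2446 bp with 36.8, parted by 100 bp that ran from 174 to 75 bp upstream of the TSS. Summed over both peaks, pool F covered 3608 bp, 2 bp more than pool E. The ROR element printed above lay 76 bp downstream of the first TSS, inside the wider of the 2 pool F peaks. Within its own list Arntl stood at or above 81.3% of marked genes by signal value in pool E and 36.8% in pool F.

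Among the PER genes, which encode repressors of CLOCK and BMAL1, Per1 had the widest peak of the 3, and its signal value was the lowest of all 10 clock genes. Its main peak measured 6375 bp in pool E, 6461 bp in pool F and 6433 bp in the replicated list (chr11:69095138-69101570). The pools differed by 86 bp, and 3.28% of marked genes were wider. The signal value was 32.4 in pool E, 28.9 in pool F and 30.4 in the replicated list, where 76.5% of marked genes were higher. That peak reached 79 bp upstream and 6353 bp downstream of the first TSS, over all 6 annotated TSSs and the start codon at 5425 bp. A separate peak of 598 bp with a signal value of 14.3 lay upstream (chr11:69094199-69094796). The gap between the peaks was 373 bp in pool E, 301 bp in pool F and 341 bp in the replicated list, always ending within 106 bp of the TSS. Of marked genes, 2.12% likewise had a further peak upstream of the one over the first TSS, within 1000 bp of that TSS.

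Per2 had a peak of 4712 bp in pool E, 3376 bp in pool F and 4748 bp in the replicated list (chr1:91455408-91460155), with signal values of 55.8, 44.7 and 49.0. The pools shared the upstream edge to within 35 bp and parted at the downstream edge by 1371 bp, where pool F held a separate peak of 1261 bp with a signal value of 9.09. Per3 had the narrowest peak of the 10, of 2273 bp in pool E, 2321 bp in pool F and 2272 bp in the replicated list (chr4:151043210-151045481), close to the median of marked genes. Its signal values were 47.9, 41.8 and 44.3 in the same lists. All 3 of its D-boxes lay upstream of the TSS under this peak.

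The cryptochrome genes encode the other repressor subunits. Cry1 had a peak of 3605 bp in pool E, 3573 bp in pool F and 3602 bp in the replicated list (chr10:85182652-85186253). Its signal value was 61.4 in pool E, 57.2 in pool F and 57.1 in the replicated list, at or above 80.8% of marked genes in pool E and 96.2% in pool F. Cry2 was wider, with 5541 bp in pool E, 4557 bp in pool F and 5369 bp in the replicated list (chr2:92429697-92435065), and its signal values were 47.4, 42.5 and 44.7. Its pools parted at the downstream edge, by 1008 bp, and 81.8% of its pool E bases lay under a pool F peak, the lowest share of the 10 genes.

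The REV-ERB genes, which encode haem-binding repressors, held the widest peak of the 10 in Nr1d1 and the highest signal value in Nr1d2. The Nr1d1 peak measured 10089 bp in pool E, 8699 bp in pool F and 9917 bp in the replicated list (chr11:98767879-98777795), and 0.591% of marked genes were wider. It ran from 2462 bp upstream of the TSS to 7454 bp downstream and covered the whole 7402 bp of the gene with all 8 exons. In pool F it ended at 6247 bp and touched 7 exons, and a separate peak of 1069 bp with a signal value of 12.9 lay in the rest. Its signal value was 54.1 in pool E, 46.5 in pool F and 49.1 in the replicated list. Thra, the thyroid hormone receptor gene on the opposite strand, shared 1128 bp with this peak, so both genes lay under it at that end. Besides Gm7467 at the Clock peak, given below, the other peaks were overlapped by the following genes. Camta1 held all 2272 bp of the Per3 peak on the same strand. D930015M05Rik shared 2612 bp of the Cry2 peak, and Sphk2 shared 280 bp of the Dbp peak. Thra, Camta1, D930015M05Rik and Sphk2 were named after their overlaps were seen.

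Nr1d2 had a peak of 3960 bp in pool E, 3924 bp in pool F and 3936 bp in the replicated list (chr14:18236045-18239980), with signal values of 66.0, 56.7 and 60.9. In the replicated list 5.15% of marked genes had a higher signal value. A second peak followed 170 bp further into the gene, of 3665 bp with a signal value of 18.4 in pool E, 3343 bp with 10.7 in pool F and 3631 bp with 14.96 in the replicated list. Joined over the gap, the Nr1d2 domain measured 7737 bp.

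Dbp, the output gene, had a peak of 6166 bp in pool E, 6333 bp in pool F and 6112 bp in the replicated list (chr7:45703635-45709746), and 3.97% of marked genes were wider. Its signal value was 41.6 in pool E, 40.8 in pool F and 37.8 in the replicated list, where 65.4% of marked genes were higher. The peak covered 91.1% of the 5116 bp gene, part of each of its 4 exons and all 5 of its TSSs. In the replicated list Dbp was also the gene with its summit farthest from the first TSS, at 1606 bp in exon 2. The other 9 summits of that list lay 166 to 465 bp downstream in exon 1 or intron 1, and in pool F the Clock summit lay at 568 bp. The E-boxes of the Dbp intron lay 1018 and 1131 bp beyond the Dbp summit of the replicated list. A TSS of Car11, a carbonic anhydrase-related gene on the same strand, lay 152 bp from this peak, and the antisense gene Gm7467 had a TSS under the Clock peak, 84 bp from a TSS of Clock.

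**Figure D2:**
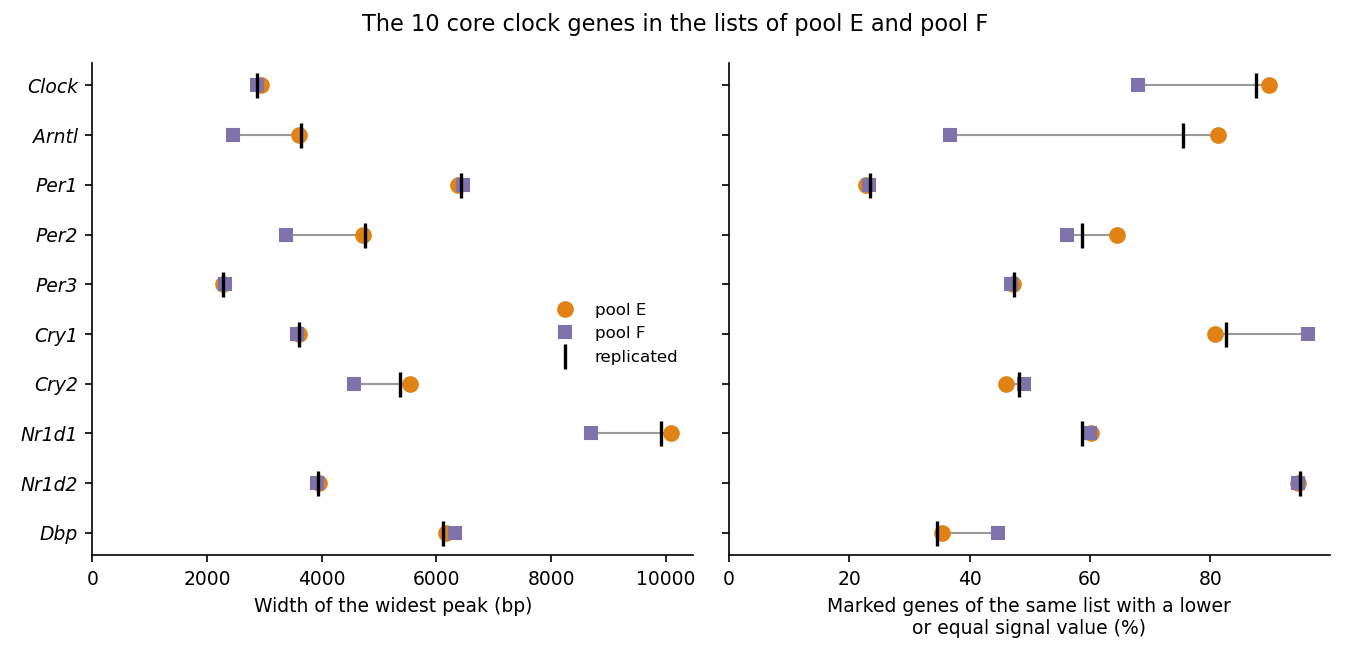
Width of the widest peak in bp (left) and the share of marked genes of the same list with a lower or equal signal value in percent (right) for the 10 clock genes, with circles for pool E, squares for pool F and ticks for the replicated list. Arntl stands at 81.3% in pool E and 36.8% in pool F, while Cry1 stands at 80.8% in pool E and 96.2% in pool F.

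By arm, the median width in the replicated list was 3259 bp for the positive arm (2 genes, 2873 and 3645 bp), 4748 bp for the negative arm (7 genes, 2272 to 9917 bp) and 6112 bp for Dbp. In pool E the medians were 3275.5, 4712 and 6166 bp, and in pool F 2660.5, 3924 and 6333 bp, in the same order of arms. Of the 7 negative arm genes, 5 were wider than both positive arm genes in pool E and in the replicated list, and 6 in pool F. Per3, narrower than both in every list, was the exception in pool F. The arms therefore overlapped, and 1 negative arm gene marked each end of the width range.

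The median signal value in the replicated list was 56.8 for the positive arm, 49.0 for the negative arm (30.4 to 60.9) and 37.8 for Dbp. Pool E gave 63.1, 54.1 and 41.6, the same order. In pool F the negative arm stood at 44.7, the positive arm at 43.1 and Dbp at 40.8, so that the positive and negative arms changed places. With 2 genes in the positive arm, its pool F median was the mean of Clock at 49.5 and Arntl at 36.8. Nr1d2 stood above both positive arm genes in every list, as did Cry1 in pool F. With 1 list for each pool and 2, 7 and 1 genes in the arms, no test between arms was made.

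Ordered by width in the replicated list, the genes ran Nr1d1, Per1, Dbp, Cry2, Per2, Nr1d2, Arntl, Cry1, Clock and Per3. Neighbours whose ranges over the pools overlapped were Cry2 and Per2, Per2 and Nr1d2, and Arntl and Cry1. Both pools placed Cry2 above Per2, and they disagreed on the other 2 of these pairs. The SD between pools ranged from 22.6 bp for Cry1 to 983 bp for Nr1d1 (n = 2 pools). By signal value the order was Nr1d2, Clock, Cry1, Arntl, Nr1d1, Per2, Cry2, Per3, Dbp and Per1. Both pools placed Nr1d2 above Clock, Per2 above Cry2, Per3 above Dbp and Dbp above Per1, and disagreed on the other 5 neighbouring pairs. Signal values were also shared between peaks: 41955 peaks of the replicated list took 6976 distinct values, and the values of Clock and Nr1d2 were each found at 45 protein-coding genes.

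**Figure D3:**
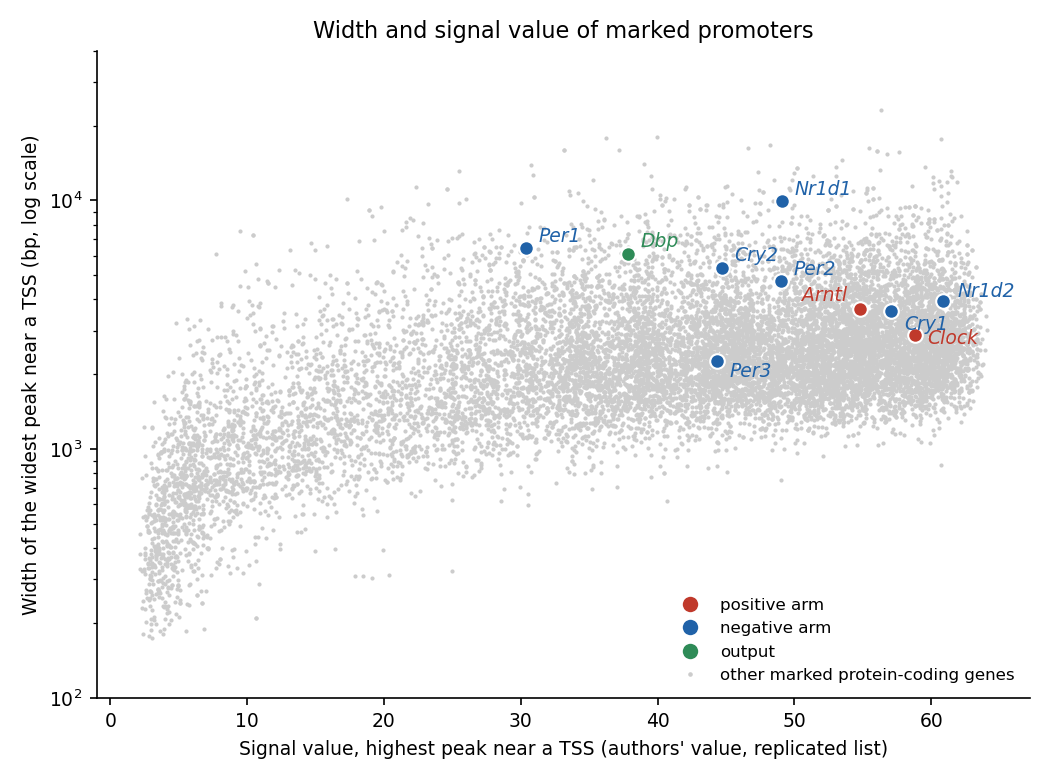
Width of the widest peak in bp on a log axis against the deposited signal value, replicated list, with the clock genes coloured by arm over the other marked protein-coding genes in grey. Nr1d1, Per1 and Dbp are the widest of the 10 clock genes, and Per1 and Dbp have the lowest signal values of the 10.

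At the clock genes the peaks of the 2 pools lay on the same ground. All 11 pool E peaks of the clock genes were overlapped by a pool F peak, each by at least 50% in both directions, and all 12 pool F peaks were overlapped in pool E. A median of 97.6% of a gene's pool E bases lay under pool F peaks and 99.2% of its pool F bases under pool E peaks. Summits were a median of 26.5 bp apart, with Clock the farthest at 239 bp and Cry1 next at 180 bp. No such overlap over all marked genes was set beside these values, so they are not shown to be particular to the clock genes. Of all protein-coding genes, 15066 were marked in pool E, 14984 in pool F and 14930 in both. Widths were greater in pool E for 7 of 10 genes, beside 76.6% of the 14930 genes marked in both pools; Per1, Per3 and Dbp were wider in pool F.

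Clock gene peaks extended mostly into the gene. Every one of the 10 reached further downstream than upstream of the first TSS, as did 83.6% of 13395 marked genes with a peak there. The median reach was 3499 bp downstream, against 1437 bp for those genes, and 1105.5 bp upstream, against 705 bp. The start codon lay under the peak in 7 genes and beyond it in Clock, Arntl and Per2, whose start codons are 37946, 73198 and 8499 bp from the first TSS. No share over all marked genes was set beside this count.

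The 3 widest peaks, at Nr1d1, Per1 and Dbp, belonged to the 3 shortest clock genes, of 7402, 14744 and 5116 bp, and to the 3 with the fewest CpG dinucleotides relative to base composition. The observed over expected CpG ratio in 1000 bp at the TSS nearest the summit was 0.438 for Nr1d1, 0.625 for Per1 and 0.687 for Dbp. For the other 7 it was 0.802 to 1.01, with Cry1 and Per2 at the top, and the median of marked genes was 0.726. The TSS used for Dbp lay 2016 bp downstream of its first TSS, so the Dbp ratio does not describe the sequence at that first TSS. For the other clock genes the TSS used lay at most 244 bp from the first. The 2625 marked genes that were both under 15000 bp and at or below the ratio of Dbp had a median width of 1877 bp. Of them 4.08% reached the 6112 bp of Dbp, the narrowest of the 3, beside 3.98% of all marked genes. The limits of this grouping were set after the values were seen. The other 7 clock genes had a median width of 3645 bp, against 2333 bp for marked genes of at least 15000 bp.

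In the replicated list, 29 of 40 distinct TSSs annotated for the 10 genes lay under a peak. The other 11 lay over 1000 bp from every peak that marked the gene. The 11 were internal TSSs, 1 in Clock, 3 in Arntl, 1 in Per2, 2 in Per3, 3 in Cry1 and 1 in Nr1d2, at 9459 to 97955 bp from the first TSS. All TSSs of Per1, Cry2, Nr1d1 and Dbp lay under a peak. Inside the genes, 20 further peaks lay over 1000 bp from a TSS, 8 in Arntl, 5 in Nr1d2, 4 in Cry2, 2 in Per2 and 1 in Cry1. Their median signal value was 3.52 and their median width 449.5 bp. The second Nr1d2 peak, at 14.96, was the highest of them, and the 8 in Arntl reached at most 5.03. These counts of TSSs and further peaks have no share over all marked genes beside them. They are therefore not shown to be particular to the clock genes.

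A broad peak lay upstream of Nr1d1 with no gene annotated over it (chr11:98781612-98787891). It measured 6280 bp with a signal value of 26.6 in the replicated list, and its near edge lay 6279 bp from the first TSS of Nr1d1, the nearest TSS of any gene. Pool E held it as peaks of 5710 bp with 33.1 and 546 bp with 8.35, and pool F as peaks of 2949 bp with 15.7 and 2883 bp with 21.7. Among 15200 replicated peaks over 5000 bp from any TSS, the median width was 563 bp and the median signal value 4.69. Of these, 10 were at least as wide and 3.13% had a signal value as high, this peak itself included in both. The comparison was added after values were seen, and its width rank holds for the replicated list, where the peak is whole.

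Other genes of the clock pathway were marked as well, 26 of 26 in each list, beside 68.9% to 69.5% of protein-coding genes. In the replicated list their widths had a median of 3805 bp, against 2281 bp for marked genes. Their signal values there had a median of 50.6, against 45.2 for marked genes. The highest signal values included those of Nampt, for the enzyme that limits NAD salvage (62.7), Wee1, a kinase that holds back mitosis (60.2), and Nfil3, a repressor at D-boxes (59.7). The lowest included Ciart, a repressor of CLOCK and BMAL1 (20.7), the receptor gene Rorb (25.1), and Hlf, a relative of Dbp (35.3). By width, picked out after their values were seen, Usp2, which encodes a deubiquitinase, had 12550 bp and Bhlhe40, which encodes a repressor at E-boxes, 11180 bp, both wider than Nr1d1 in the replicated list. In pool E the Usp2 peak measured 23892 bp, and in pool F 12547 bp. The Bhlhe40 peak measured 11219 bp in pool E, above Nr1d1, and 8667 bp in pool F, below the 8699 bp of Nr1d1 there.

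**Figure D4:**
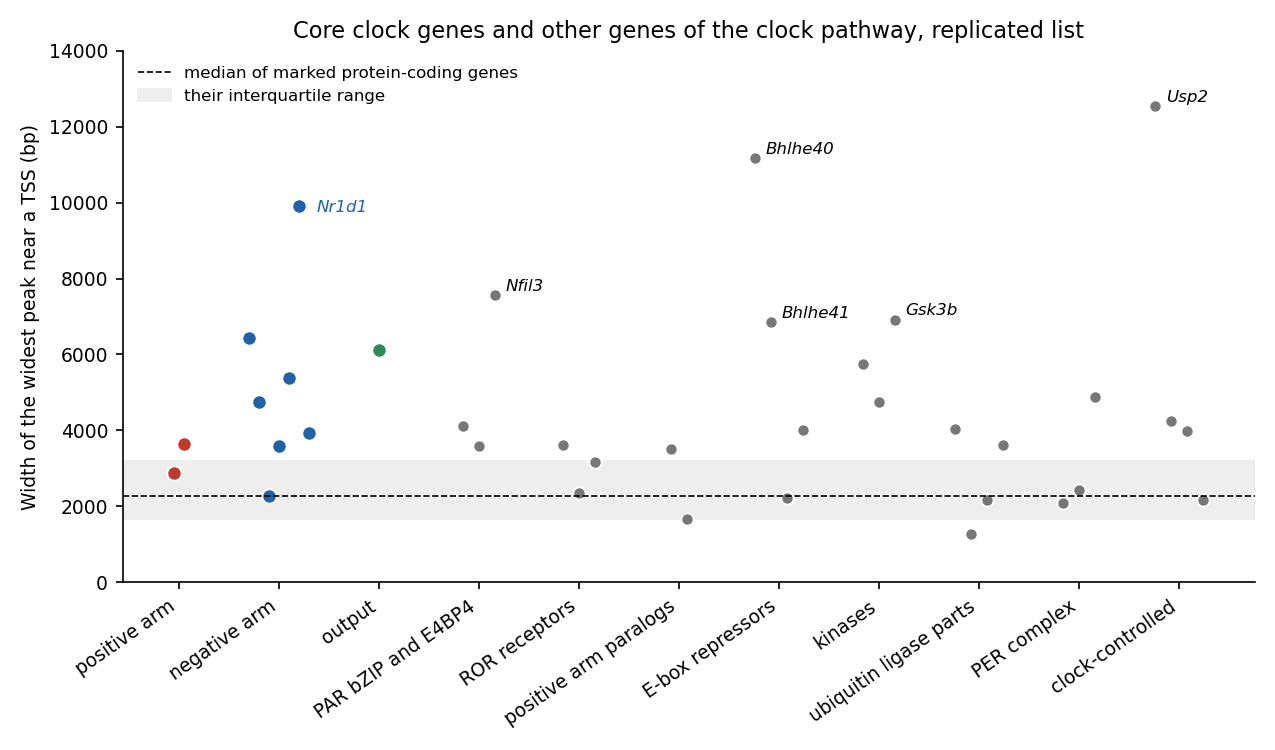
Width in bp of the widest peak near a TSS in the replicated list for the 10 core clock genes (coloured, by arm) and 26 other genes of the pathway (grey, by class), with the median of marked protein-coding genes as a dashed line and their interquartile range shaded. Usp2 at 12550 bp and Bhlhe40 at 11180 bp stand above Nr1d1 at 9917 bp.

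The muscle identity of the lists was checked with defining genes. All 7 skeletal muscle genes, among them Ckm and Acta1, were marked in pool E, in pool F and in the replicated list. None of 3 heart genes and none of 3 liver genes was marked in these lists, and of 4 genes of suprachiasmatic neurons, the cells of the central clock, Prok2 was marked, with a signal value of 10.4. The tissue was whole muscle, so a peak can come from any of its cell types, and a wider peak and a peak present in more cells cannot be told apart. The lists hold no read counts, so depth is unknown, and no interval for counting error can be given.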

How the data were processed

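Peak lists of 4 libraries, in pools E and F, were used as deposited, in 4 mm10 files of the narrowPeak format. The text file deposited with each sample says that they were made from filtered alignments of each pool and 1 further file, and the 2 technical libraries of a pool share 1 alignment. Which aligner and peak caller were used is not given in the sources used here. Each deposited peak carries positions, a display score and a −log10 p (neither used), the authors' signal value and a −log10 q. Depth is unknown.

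TSSs were taken from GENCODE M21 and sequences from RefSeq GRCm38.p6, checked against the genome (658 of 658 windows identical). A gene was marked by a peak within 1000 bp of any TSS, with Python 3.11.15 and pysam 0.24.0, and the counting was tested on simulated peaks. Coordinates are 1-based. No p-values were computed: 2 pools of 1 condition allow none. All 10 members and the other pathway genes were taken as listed, with values for the 4 highest and 4 lowest of the pathway genes, of which 2 are not reported here; other genes were named where a TSS lay within 1000 bp of a member's peak or, added later, where they overlapped one. The members and lists were chosen with earlier results of these data known. Alternatives were TSS windows of 0 and 2500 bp, protein-coding TSSs, a −log10 q of at least 5, each list alone, domains joined over 1000 bp, summed widths and other arm members.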

Additional observations from a re-analysis of the deposited data

How the results depend on the processing

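Of 244 widths and signal values recomputed under alternatives, 218 stayed within the SD between pools and 26 moved further. Many of the 218 did not move at all, and that SD comes from the same 2 pool lists that served as alternatives. Of 20 counts, 15 stayed within 1.5 times, and the 5 that did not were the motif counts in whole peaks. TSS windows of 0 and 2500 bp, protein-coding TSSs, a −log10 q of at least 5 and the pooled list left every width and signal value unchanged. Of 20 widths and signal values of single genes, 9 moved further than that SD with pool F alone and 3 with pool E alone. With joined peaks, 3 of 10 widths of single genes did. Between the lists of single pools, the median width was 2660.5 to 3275.5 bp for the positive arm and 3924 to 4712 bp for the negative arm. For Dbp it was 6166 to 6333 bp and for all 10 genes 3748.5 to 4336 bp. The signal value of Dbp was 40.8 to 41.6 in the pools and 37.8 in the replicated list, and counted as moved in both pools. These counts compare signal values between lists, although their common scale was not stated. With peaks joined over 1000 bp the median widths were 3775.5 bp for the positive arm, 5369 bp for the negative arm and 5058.5 bp for all 10. With Tef and Hlf beside Dbp the output had a median of 4126 bp, below the negative arm. With the arms as listed, the order by width held under these alternatives, and the order by signal value changed in pool F alone. No paired analysis was possible because replicate numbers mark technical libraries that share 1 alignment, and no list holds a value per library. Depth is unknown, so what counting error would allow cannot be stated.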
